A study of Mus musculus with 6 samples.

Results

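Expression of 34 genes for fatty acid import and β-oxidation was followed in neonatal mouse cardiomyocytes (CMs) exposed to α-ketoglutarate (αKG), an intermediate of the Krebs cycle. The genes were chosen by symbol, for their place in activation, the carnitine shuttle, mitochondrial and peroxisomal β-oxidation and electron transfer, and all 34 were found among the 20066 genes of the RNA-seq table. Hearts of C57BL/6 pups aged P0-1 were dissociated, and the cultured cells received DMSO, the solvent, or cell-permeable αKG for 96 h, at 100 µM per the labels. Each group had 3 libraries of total RNA, and no genetic change was made in either of them. No step to purify CMs is named for these cultures. For its imaging of neonatal CMs the study counted 1 isolation from pooled hearts as a sample, but the labels do not say this of the RNA, so that the p-values measure only the spread between these libraries, which may be technical.

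In β-oxidation, long-chain fatty acids are taken up, bound in the cytosol and activated to acyl-CoA. Carnitine palmitoyltransferase 1 (CPT1) passes the acyl group to carnitine, which carries it into the mitochondrion, where CPT2 returns it to CoA. A repeating cycle of dehydrogenation, hydration, a second dehydrogenation and thiolysis then shortens the chain and yields acetyl-CoA, with electrons passed on through the electron transfer flavoprotein. The heart turns from glycolysis to fatty acid oxidation after birth, and malonyl-CoA, which inhibits CPT1, is a main control point of the pathway in this organ. The study set out from the loss of *Cpt1b* and a build-up of αKG in CMs, and the treatment of neonatal CMs asked what αKG does by itself.

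Values are read counts that the authors normalized per library and rounded, from an estimated 3725428 to 4428177 reads per library. In Pearson correlations of log2 values across genes, αKG replicate 3 lay closer to the DMSO libraries (0.977 to 0.980) than to αKG replicates 1 and 2 (0.962 and 0.963), so results are given with and without it where they rest on it. Markers of CMs were present, with all 10 listed and summed values of 76069 to 78771 in DMSO and of 108922, 112179 and 80653 in αKG replicates 1 to 3. Most of this sum was *Ttn*, at 51569 to 54216 in DMSO and 80306, 84136 and 55569 in αKG (log2 0.45, and -0.16 with a correction for GC content and exon length). None of the 10 was called in limma or limma-voom (3 higher and 2 lower at an unadjusted p under 0.05 in limma). Without αKG replicate 3, limma called 4 higher and 2 lower, against 19.3% and 17.9% of all genes. With all libraries 7 had a positive log2 value, among them *Ryr2* (0.27), *Actn2* (0.13), *Myh6* (0.13) and *Myl2* (0.0019). The 3 with a negative value were *Tnni3* (-0.05), *Pln* (-0.15) and *Nkx2-5* (-0.41). The cultures also held RNA of other cells: 7 of 10 endothelial markers fell (limma, Benjamini-Hochberg adjusted p under 0.05, the threshold for a call used throughout; 4 in limma-voom), and the sum of all 10 was 2242 to 2343 in DMSO and 1554 to 1682 in αKG. *Flt1* and *Tek* did not fall, with 733 and 719, and 115 and 96, in αKG replicates 1 and 2 against 485 to 510 and 58 to 71 in DMSO, and were called higher without replicate 3. Fibroblast and epicardial markers (0 of 10 called in each, with 5 and 2 higher at an unadjusted p under 0.05 and 0 called by limma-voom, but 8 and 10 called higher without αKG replicate 3) summed to 3721 to 3888 and 483 to 519 in DMSO. In αKG replicates 1 and 2 these sums were 8269 and 8013 for fibroblasts and 1279 and 1238 for the epicardium, whereas replicate 3 had 3724 and 456. Of mural markers 2 of 10, *Cspg4* and *Cnn1*, rose, and 0 in limma-voom (2 higher and 1 lower at an unadjusted p under 0.05). Macrophage markers, with 4 of 10 listed, summed to 22 to 41 in every library, and 0 of 6 adipocyte markers were listed. In such bulk samples fewer cells of a type cannot be told apart from less RNA per cell.

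The stretches of DNA before the genes on which the results turned are printed first. *Hadha* and *Hadhb*, which encode both subunits of the mitochondrial trifunctional protein, start back to back on chromosome 5 and face away from each other. The bases between their annotated starts, GRCm38.p6 (RefSeq), chr5:30155163-30155247, plus strand, hold 2 GC boxes (GGGCGG on either strand), in capitals:
Hadha-Hadhb: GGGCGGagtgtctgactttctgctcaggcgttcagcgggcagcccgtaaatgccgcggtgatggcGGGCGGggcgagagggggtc
*Acsl1* and *Acsl3*, the genes that passed the threshold, are shown with *Ehhadh* and *Acads*, which had the largest positive and one of the largest negative differences among the others. For *Acsl1*, RefSeq has a start at the gene's outer end (chr8:46470917-46471036, plus strand) and another inside the gene (chr8:46490846-46490965, plus strand). The other stretches are chr1:78657705-78657824, plus strand, for *Acsl3*, chr16:21787835-21787954, minus strand, for *Ehhadh* and chr5:115119347-115119466, minus strand, for *Acads*. Capitals mark GC boxes and CCAAT boxes (CCAAT on either strand):
Acsl1, outer start: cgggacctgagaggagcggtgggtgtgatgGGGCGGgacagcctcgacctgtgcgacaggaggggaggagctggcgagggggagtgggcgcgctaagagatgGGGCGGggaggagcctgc
Acsl1, inner start: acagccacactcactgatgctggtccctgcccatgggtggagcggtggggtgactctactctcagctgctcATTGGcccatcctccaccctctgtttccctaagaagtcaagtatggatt
Acsl3: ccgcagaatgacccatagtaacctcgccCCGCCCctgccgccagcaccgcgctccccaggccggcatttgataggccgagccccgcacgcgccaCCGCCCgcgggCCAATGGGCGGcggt
Ehhadh: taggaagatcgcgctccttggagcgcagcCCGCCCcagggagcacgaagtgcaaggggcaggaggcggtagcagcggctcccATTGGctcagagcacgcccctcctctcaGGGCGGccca
Acads: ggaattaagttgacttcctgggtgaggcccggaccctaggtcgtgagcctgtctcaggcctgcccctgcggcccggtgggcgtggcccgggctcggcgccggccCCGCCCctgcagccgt
The outer *Acsl1* stretch had 2 GC boxes and no CCAAT box, and the inner one the reverse, with 0 and 1. The *Acsl3* stretch had 3 GC boxes, one of them next to its CCAAT box.

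Promoters of RefSeq (GRCm38.p6), 300 bases around each start, were matched for 28 of the 34 genes, with 31 starts. GC boxes were in 21 of these 31 promoters and in 35.7% of all 32851, and CCAAT boxes in 16 of 31 and in 37.4% of all. The core site of nuclear receptors such as the PPARs and ERRs, AGGTCA on either strand, was in 5 of 31 member promoters, those of *Acacb*, *Acadm*, *Acadvl*, *Cpt1a* and *Echs1*, and in 16.3% of all. Its longer ERR form, TCAAGGTCA, which contains the core site, was in 0 of 31 (0.423% of all), and 2 core sites in a row spaced by 1 base were also in 0 of 31 (0.0396% of all). *Cpt1a*, *Acadvl* and *Acadm* carry the core site outside annotated exons, at chr19:3323180-3323239, plus strand, chr11:70015483-70015542, minus strand, and chr3:153944834-153944893, minus strand, and only the core site is in capitals here:
Cpt1a: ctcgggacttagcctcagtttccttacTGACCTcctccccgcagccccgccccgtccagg
Acadvl: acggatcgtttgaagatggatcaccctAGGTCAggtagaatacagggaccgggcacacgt
Acadm: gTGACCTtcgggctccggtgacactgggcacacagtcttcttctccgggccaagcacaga
*Cpt1a*, *Acadvl* and *Acadm* did not pass the test in αKG (limma adjusted p = 0.375, 0.472 and 0.955). A match of letters is a description and not a binding site.

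Transcript levels spanned a wide range. Per kilobase of annotated exon, *Acadl*, the long-chain acyl-CoA dehydrogenase of rodents, was highest in DMSO, at 531 ± 8.08 (SD, n = 3), followed by *Acaa2*, the mitochondrial thiolase, at 400.0 ± 10.2. *Fabp3*, the heart fatty acid binding protein, and *Acadvl*, the very-long-chain acyl-CoA dehydrogenase, followed at 268 ± 4.91 and 263 ± 2.79 and did not differ beyond this spread. Low levels were those of *Ehhadh* (7.27 ± 1.08), the peroxisomal bifunctional enzyme, and *Acad10* (3.74 ± 0.25), a little studied acyl-CoA dehydrogenase. *Cpt1b* stood at 6.23 ± 0.59, but most of its exon bases are shared with another gene, and its place in this order depends on the length used. The exon length counts every annotated transcript, which lowers the level of genes with many of them.

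Summed over the 34 genes, the pathway took up a similar share of the libraries in both groups. The sum was 17153, 16893 and 17446 in DMSO and 16863, 17097 and 18471 in αKG, between 0.405% and 0.448% of each library. αKG replicate 3 was the highest of the 6, and the other αKG libraries lay within or just below the DMSO range. The median log2 fold change of the 34 genes, -0.005 with a range of -0.43 to 0.74, was close to that of all genes (0.037), and 16 genes had a positive and 18 a negative value.

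**Figure D1:**
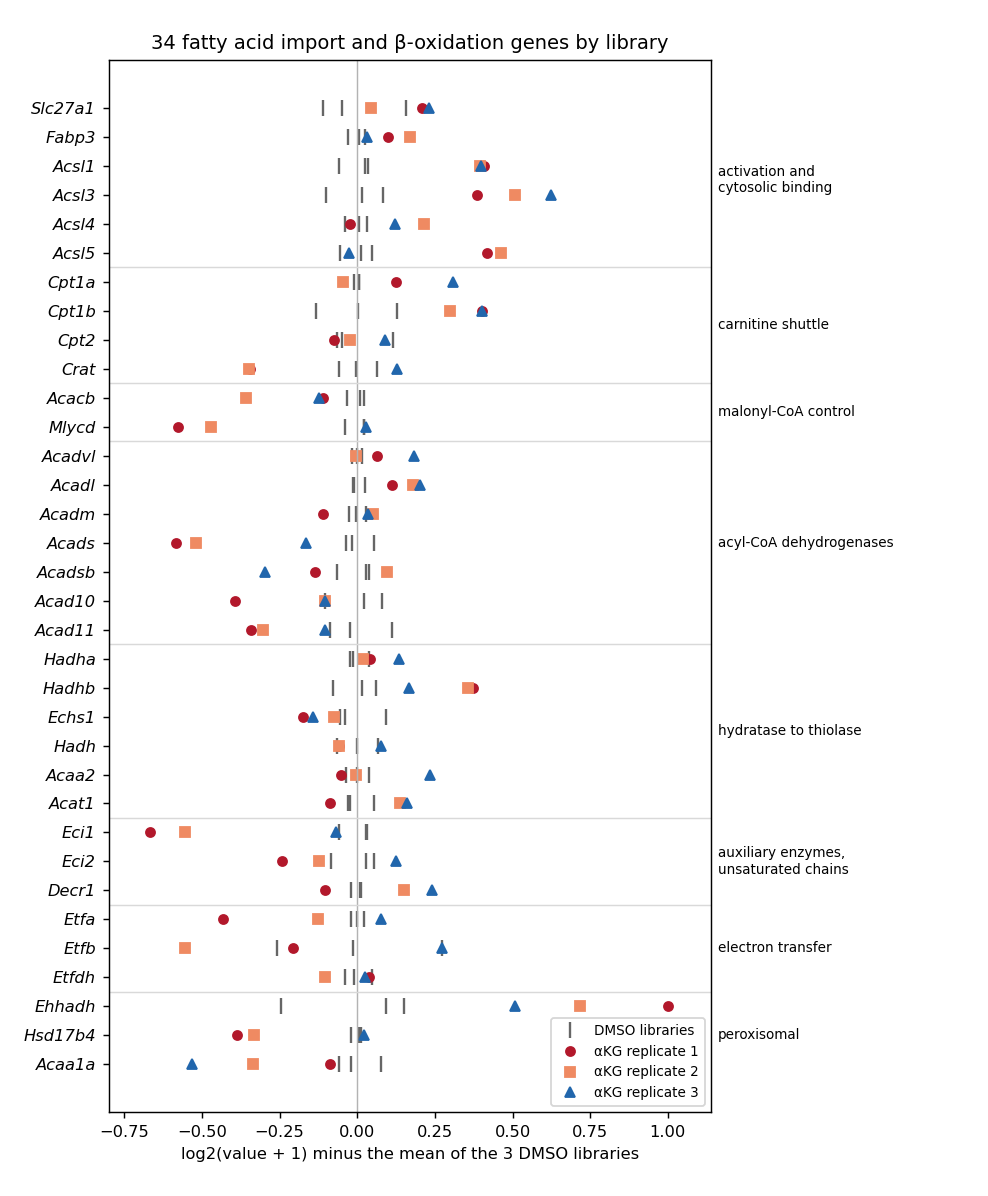
Each row is one of the 34 genes, grouped by role, and the horizontal axis gives log2(value + 1) of each library minus the mean of the 3 DMSO libraries. Grey ticks are DMSO libraries and coloured symbols are αKG replicates 1 to 3. Of the activation genes, *Acsl1*, *Acsl3* and, narrowly, *Fabp3* lie to the right of all DMSO ticks in all 3 αKG libraries. *Slc27a1*, *Acsl4* and *Acsl5* do not. For *Crat*, *Mlycd*, *Eci1* and *Hsd17b4* only αKG replicates 1 and 2 lie far to the left.

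Of the 34 genes, 2 (5.88%) rose at a Benjamini-Hochberg adjusted p under 0.05 in limma, *Acsl1* and *Acsl3*, against 2.83% of all genes tested, and limma-voom on estimated reads called the same genes. None (0 of 34) fell in either limma or limma-voom, against 0.952% of all genes, while 5 genes had a lower value at an unadjusted p under 0.05. Without adjustment, 5 were higher and 5 lower (14.7% each), against 15.7% and 12.4% of all genes. Every αKG library was higher than every DMSO library for 7 genes (20.6%), against 13.7% of all genes, and lower for 6 (17.6%), against 14.6%. The unadjusted shares were near those of the whole table and the shares without overlap a little above it. The shares of all genes, throughout, include 6657 genes with a mean under 10, whereas 0 of the 34 had such a mean. They are thus not shares of genes of like level. Without αKG replicate 3, 6 genes were called higher (17.6%) and 7 lower (20.6%), against 19.3% and 17.9% of all genes, so that library decided most calls, and the shares again lay near the background. The genes called only then were *Acsl5*, *Acadl*, *Hadhb* and *Ehhadh*, higher, and *Acacb*, *Mlycd*, *Crat*, *Acads*, *Acad11*, *Eci1* and *Hsd17b4*, lower.

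Of the 6 genes for binding and activation of fatty acids, 2 rose, *Acsl1* and *Acsl3*. *Acsl1*, the main long-chain acyl-CoA synthetase of the heart (ENSMUSG00000018796, GRCm38 chromosome 8, 46471037 to 46536051), had values (normalized counts throughout) of 1082, 1146 and 1153 in the DMSO libraries and of 1494, 1482 and 1484 in the αKG libraries. The αKG libraries lay within 12 counts of each other and far above DMSO. The rise was 1.32-fold, or 0.40 ± 0.06 on the log2(value + 1) scale (SE, limma adjusted p = 0.0118). *Acsl3*, a synthetase of the endoplasmic reticulum and of lipid droplets (ENSMUSG00000032883, chromosome 1, 78657825 to 78707743), had 322, 297 and 337 in DMSO and 416, 453 and 491 in αKG. The groups did not overlap, and here αKG replicate 3 was the highest library. *Acsl3* rose 1.42-fold (log2 0.51 ± 0.09, limma adjusted p = 0.0294).

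Both calls were lost in 9 of 16 alternatives, among them the fits without any 1 library other than αKG replicate 3, with limma adjusted p up to 0.255 in each. The log2 fold change stayed positive in all 16, and the unadjusted limma p was at most 0.00534 for *Acsl1* and 0.00544 for *Acsl3*. With a correction for GC content and exon length, the adjusted p was 0.0533 and 0.0540. *Acsl5*, a further synthetase, had 239, 245 and 228 in DMSO and 317, 327 and 233 in αKG. Replicate 3 was within the DMSO range, and the gene passed only without it (log2 0.44, limma adjusted p = 0.00352, against 0.192 with all libraries). *Slc27a1*, a fatty acid transporter with synthetase activity, *Fabp3* and *Acsl4*, a synthetase with a preference for arachidonic acid, had log2 values of 0.16, 0.10 and 0.10 and did not pass. All 6 activation genes had positive values, with a median of 0.22. With the correction for GC content and exon length, 5 were positive, *Acsl4* was at -0.20 and 0 were called. Their sum was 2514 ± 28.6 (SD, n = 3) in DMSO and 3133 ± 57.5 in αKG, of which *Acsl1* had means of 1127 and 1487.

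**Figure D2:**
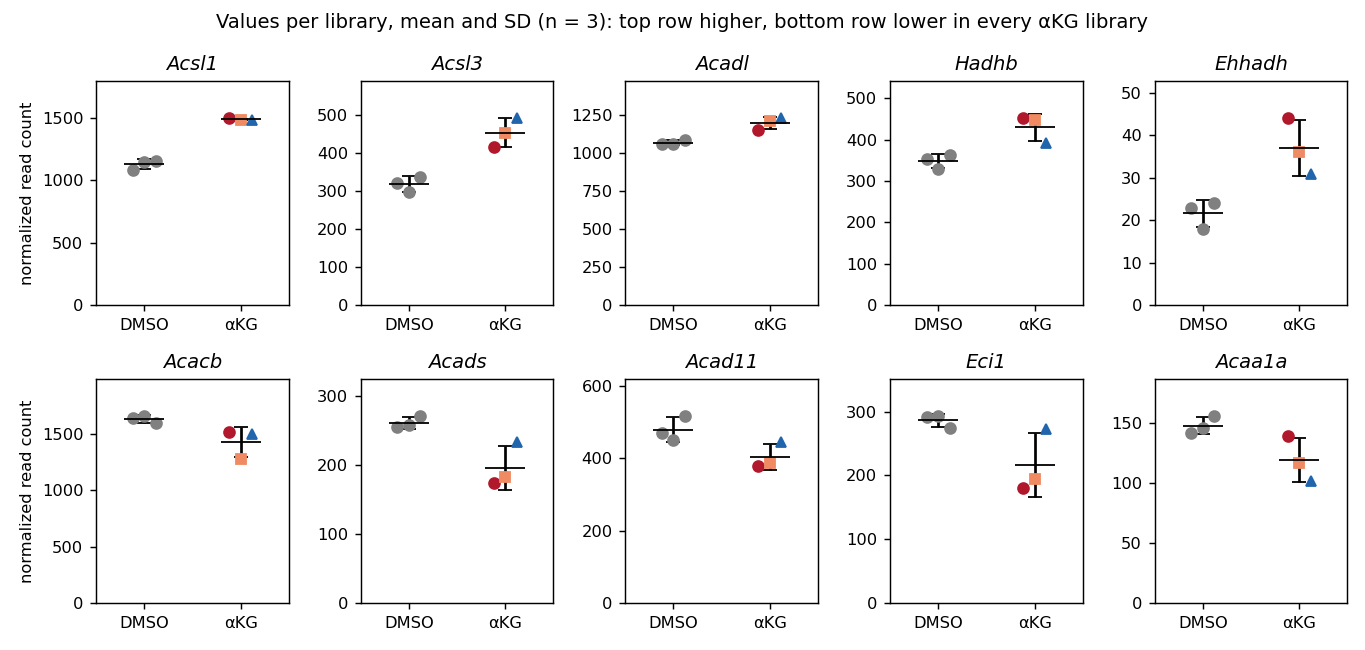
Each panel shows the normalized read counts of a gene in every library, with the mean and SD of the 3 libraries of a group as black lines. Grey circles are DMSO, and red circles, orange squares and blue triangles are αKG replicates 1 to 3. The top row holds 5 of the 7 genes higher in every αKG library and the bottom row 5 of the 6 lower in every one, and the blue triangle of *Eci1*, at 273, sits next to the lowest DMSO value, 275.

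None of the 4 carnitine shuttle genes passed the threshold in limma or limma-voom, and in limma 0 of 4 had an unadjusted p under 0.05. *Cpt1a*, the CPT1 isoform of liver and of the fetal heart (ENSMUSG00000024900, chromosome 19, 3322334 to 3385733), had 568, 562 and 569 in DMSO and 618, 549 and 702 in αKG. The DMSO values were nearly identical and the αKG values lay on both sides of them (log2 0.13 ± 0.09, 95% interval -0.08 to 0.34, limma adjusted p = 0.375). *Cpt1b*, the isoform of adult muscle (ENSMUSG00000078937, chromosome 15, 89416405 to 89425863), had 23, 19 and 21 in DMSO and 28, 26 and 28 in αKG. Every αKG library was higher, but at these low values the interval was wide (log2 0.37 ± 0.24, -0.16 to 0.90, limma adjusted p = 0.332), and quantile normalization brought the difference to 0.01. *Cpt2*, the inner enzyme (ENSMUSG00000028607, chromosome 4, 107903981 to 107923610), had 456, 461 and 517 in DMSO and 453, 470 and 508 in αKG. Its groups lay on top of each other (log2 -0.00 ± 0.08, interval -0.19 to 0.19, limma adjusted p = 0.997).

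The study sets *Cpt1b* against *Cpt1a*, so their ratio within each library was compared. *Cpt1b* counts were 4.05%, 3.38% and 3.69% of *Cpt1a* counts in DMSO and 4.53%, 4.74% and 3.99% in αKG. The ranges overlapped, and the log2 ratio differed by 0.25 (exact permutation test, two-sided, p = 0.2, where 3 against 3 libraries cannot give less than 0.1). Of the 3372 exon bases of *Cpt1b*, 81.4% are shared on the same strand with the annotated gene *Gm44502*, and reads lying in several genes were left out by the authors, so that the *Cpt1b* value counts only part of its transcripts. On the unshared 628 bases alone its level in DMSO was 33.4 per kilobase, against 74.1 for *Cpt1a*, which shares none. *Crat*, carnitine acetyltransferase, had 766, 738 and 804 in DMSO and 605, 604 and 841 in αKG. Replicates 1 and 2 were lower and replicate 3 higher than any DMSO library, and *Crat* passed only without the latter (log2 -0.35, limma adjusted p = 0.00373, against 0.332 with it).

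**Figure D3:**
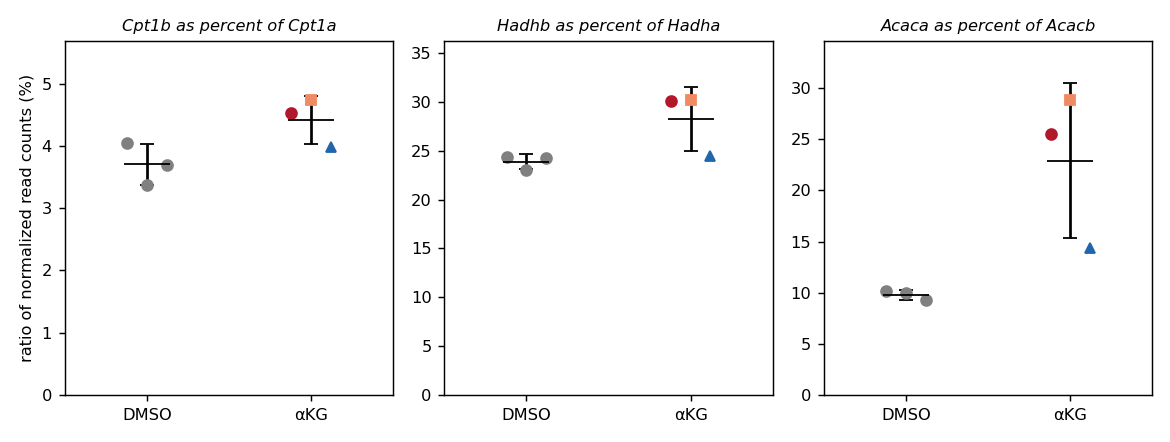
The value of a gene is given as a percentage of that of a second gene in the same library, with mean and SD (n = 3) as black lines and the same symbols for libraries as in the plot of single genes. The *Cpt1b* to *Cpt1a* ratio overlaps between groups, at 3.38 to 4.05% in DMSO and 3.99 to 4.74% in αKG. *Hadhb* to *Hadha* and *Acaca* to *Acacb* were chosen for plotting after their values were seen.

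Both genes that set the level of malonyl-CoA had negative values. *Acacb*, the mitochondrial acetyl-CoA carboxylase that makes malonyl-CoA next to CPT1 (ENSMUSG00000042010, chromosome 5, 114146535 to 114250761), had 1643, 1659 and 1597 in DMSO and 1514, 1274 and 1500 in αKG. It was lower in every αKG library, without passing the adjusted threshold (log2 -0.20 ± 0.07, limma adjusted p = 0.127, and 0.0452 without αKG replicate 3). *Mlycd*, which degrades malonyl-CoA (ENSMUSG00000074064, chromosome 8, 119394878 to 119411102), had 217, 208 and 217 in DMSO and 143, 154 and 218 in αKG. Replicate 3 was level with the highest DMSO libraries and the others were far below (log2 -0.34 ± 0.15, limma adjusted p = 0.180, against -0.52 and 0.00320 without it).

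The cytosolic carboxylase *Acaca*, whose malonyl-CoA feeds fatty acid synthesis, is not one of the 34 but is given beside them. It had 167, 165 and 148 in DMSO and 386, 367 and 215 in αKG and rose (log2 0.96 ± 0.20, limma adjusted p = 0.0379), though 10 of 16 alternatives lost this call, with adjusted p up to 0.264. All αKG libraries were higher, replicate 3 by less. As a percentage of *Acacb*, *Acaca* was at 10.2, 9.95 and 9.27 in DMSO and at 25.5, 28.8 and 14.3 in αKG. This ratio was chosen after the values were seen and is given without a test.

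The acyl-CoA dehydrogenases, which open each round of the cycle and differ in the chain length they accept, split in 2 positive and 5 negative values with a median of -0.11. *Acadl* (ENSMUSG00000026003, chromosome 1, 66830839 to 66863277) had 1054, 1056 and 1083 in DMSO and 1149, 1205 and 1225 in αKG. It was higher in every αKG library by a small amount (log2 0.16 ± 0.06, limma adjusted p = 0.114, and 0.0304 without αKG replicate 3). *Acads*, the short-chain enzyme (ENSMUSG00000029545, chromosome 5, 115110299 to 115119346), had 255, 258 and 271 in DMSO and 174, 182 and 233 in αKG. It lay lower in every αKG library, with replicate 3 nearest to DMSO (log2 -0.42 ± 0.12, limma adjusted p = 0.0784, and -0.55 and 0.00210 without replicate 3). *Acad11*, a dehydrogenase of long chains (ENSMUSG00000090150, chromosome 9, 104063377 to 104127725), had 470, 450 and 516 in DMSO and 377, 387 and 445 in αKG. Replicate 3 was only 5 counts below the lowest DMSO library (log2 -0.25 ± 0.09, limma adjusted p = 0.127, and 0.0141 without replicate 3).

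The remaining dehydrogenases overlapped between groups. *Acadvl*, *Acadm* for medium chains, *Acadsb* for short branched chains and *Acad10* had log2 values between -0.20 and 0.08. *Acadvl* shares 42.9% of its exon bases with *Dvl2* on the opposite strand, and no source says that the counting used strand.

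In the steps from hydratase to thiolase the subunits of the trifunctional protein differed in what they showed. *Hadha*, the subunit with hydratase and dehydrogenase activity (ENSMUSG00000025745, chromosome 5, 30118304 to 30155162), had 1445, 1435 and 1497 in DMSO and 1501, 1479 and 1601 in αKG and overlapped (log2 0.07, limma adjusted p = 0.479). *Hadhb*, the thiolase subunit (ENSMUSG00000059447, chromosome 5, 30155248 to 30184593), had 352, 330 and 363 in DMSO and 451, 446 and 391 in αKG. It was higher in every αKG library, least in replicate 3 (log2 0.30 ± 0.09, limma adjusted p = 0.0816, and 0.36 and 0.00561 without replicate 3). *Hadhb* counts were thus 24.4%, 23.0% and 24.2% of *Hadha* counts in DMSO and 30.0%, 30.2% and 24.4% in αKG, although only 85 bases separate the starts printed above. *Hadhb* has the second-lowest GC content of the 34 genes, 39.1%, and with the correction for GC content and exon length its log2 value was -0.01 (limma adjusted p = 0.961). *Echs1*, the short-chain hydratase, was lower in every αKG library (log2 -0.13, limma adjusted p = 0.328), while *Hadh*, *Acaa2* and *Acat1*, a short-chain dehydrogenase and 2 thiolases, overlapped between groups, with log2 values of -0.01, 0.06 and 0.07.

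Of the auxiliary enzymes, which prepare unsaturated chains for the cycle, *Eci1*, a mitochondrial enoyl-CoA isomerase (ENSMUSG00000024132, chromosome 17, 24426641 to 24439348), had 292, 293 and 275 in DMSO and 180, 195 and 273 in αKG. Replicates 1 and 2 lay far below DMSO and replicate 3 only 2 counts below it (log2 -0.43 ± 0.15, limma adjusted p = 0.106, and -0.61 and 0.00181 without replicate 3). The isomerase *Eci2* and the reductase *Decr1* had log2 values of -0.08 and 0.10 with overlapping groups. The electron transfer genes *Etfa*, *Etfb* and *Etfdh*, the subunits of the flavoprotein and the dehydrogenase that takes over its electrons, also overlapped, with log2 values between -0.16 and -0.01. *Etfb* shares 58.2% of its exon bases with other genes on its strand, and its values of 21 to 38 thus count only part of its transcripts.

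The peroxisomal genes had values of both signs. *Ehhadh* (ENSMUSG00000022853, chromosome 16, 21761287 to 21787807) had 23, 18 and 24 in DMSO and 44, 36 and 31 in αKG. It had the largest log2 value of the 34, 0.74 ± 0.25, with no overlap, but at low values (limma adjusted p = 0.101, and 0.0220 without αKG replicate 3). *Acaa1a*, the peroxisomal thiolase (ENSMUSG00000036138, chromosome 9, 119339676 to 119350299), had 142, 146 and 156 in DMSO and 139, 117 and 102 in αKG. It was lower in every αKG library, and here replicate 3 lay farthest from DMSO (log2 -0.32 ± 0.14, limma adjusted p = 0.171). *Hsd17b4*, the other peroxisomal bifunctional enzyme, had 593, 607 and 604 in DMSO and 460, 477 and 610 in αKG, and passed only without replicate 3 (log2 -0.36, limma adjusted p = 0.00237, against 0.183 with it).

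The spread between libraries was larger in αKG than in DMSO for 29 of 34 genes (85.3%), against 77.6% of the 13409 genes whose mean reached 10. The median SD of log2 values was 0.051 in DMSO and 0.14 in αKG. Relative to the DMSO range, αKG replicate 1 had 12 genes above and 18 below, replicate 2 had 13 above and 14 below, and replicate 3 had 22 above and 7 below. These counts were not made over all genes, so they cannot be read as particular to the pathway. *Crat*, *Mlycd*, *Eci1*, *Acads* and *Hsd17b4* were lowest in replicates 1 and 2. In these libraries the sums of fibroblast, epicardial and cardiomyocyte markers were high, and the estimated reads were the fewest (3863393 and 3725428). *Acads* and *Eci1* were also below every DMSO library in replicate 3, at 233 and 273. In *Acsl1* and *Acsl3* the rise was present in replicate 3 as well, where the sums of fibroblast and epicardial markers were within or below the DMSO range. The endothelial markers that fell were low in replicate 3 too, but some less so, as in *Kdr* (153, 128 and 253 in αKG replicates 1 to 3, 364 to 393 in DMSO). The part of other cell types and of depth in these results was not tested.

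GC content moved with the differences. Across the 34 genes, which share the same libraries and depth, the Pearson correlation of GC content with the log2 fold change was -0.42 (Spearman -0.40), against a Pearson correlation of -0.22 over 13403 genes. By library it was -0.32, -0.57 and -0.19 for αKG replicates 1 to 3. *Acsl3* (43.2%) and *Acsl1* (44.8%) are on the AT-rich side, and *Acads* (59.7%) and *Mlycd* (59.3%), both low in αKG replicates 1 and 2, are the genes richest in GC. Against this trend, *Acad11* (42.0%) and *Acadsb* (42.7%) are lower in GC than *Acsl3* but had negative log2 values, -0.25 and -0.11. With the correction for GC content and exon length *Acsl1* and *Acsl3* had log2 values of 0.25 and 0.39 but were no longer called. *Acads* was at -0.37, *Mlycd* at -0.30, *Acad11* at -0.44 and *Acadsb* at -0.25, and all of these kept their direction. *Acsl4*, *Cpt2*, *Hadhb*, *Acat1* and *Decr1* changed sign. Without the correction, 9 of the 17 genes of lowest GC content had a positive log2 fold change, and 7 of the 17 of highest.

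**Figure D4:**
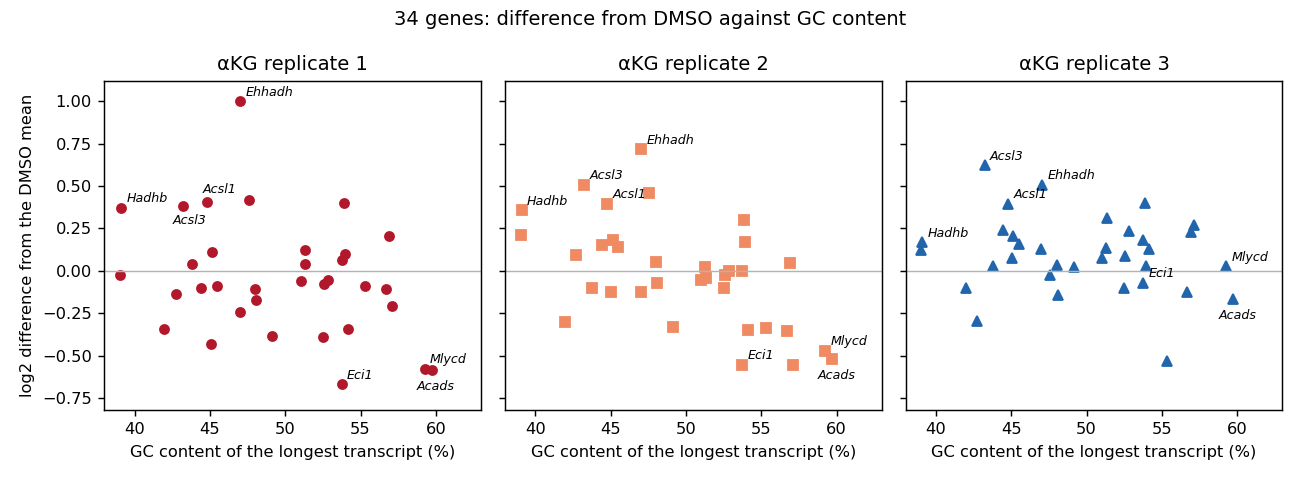
Each point is one of the 34 genes, with the GC content of its longest transcript in percent on the horizontal axis and the log2 difference of 1 αKG library from the DMSO mean on the vertical axis. Points fall from left to right most clearly in αKG replicate 2, where the Pearson correlation is -0.57. *Acads* and *Mlycd*, at the right, lie below 0 in replicates 1 and 2, while *Mlycd* is near 0 in replicate 3.

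Further genes of the pathway were read from a list of 32, of which 30 were in the table. Of these, 3 rose and 0 fell in limma (limma-voom called 2 higher and 0 lower), against 2.83% and 0.952% of all genes. At an unadjusted p under 0.05, 3 were higher and 9 lower, against 15.7% and 12.4% of all genes, and their median log2 fold change was -0.10, with 10 positive and 20 negative values. Among those with a negative value, *Pnpla2*, the lipase that opens triglyceride breakdown, had 546, 583 and 596 in DMSO and 417, 451 and 488 in αKG (log2 -0.35, limma adjusted p = 0.0509), and *Crot*, the peroxisomal carnitine octanoyltransferase, 618, 579 and 615 in DMSO and 474, 474 and 528 in αKG (log2 -0.30, limma adjusted p = 0.0609, and 0.0382 with the correction for GC content and exon length). Both lay lower in every αKG library and were named after their values were seen. Besides *Acaca*, the genes that rose were acyl-CoA thioesterases, which release fatty acids from CoA. *Acot2*, the mitochondrial form, had 127, 119 and 133 in DMSO and 275, 286 and 285 in αKG. Its libraries within each group were nearly equal, and its rise was above the log2 value of every one of the 34 genes (log2 1.15 ± 0.10, limma adjusted p = 0.00241, and up to 0.189 over its alternatives, with 4 of 16 losing the call). *Acot1*, the cytosolic form, had 4, 2 and 2 in DMSO and 26, 26 and 23 in αKG (limma adjusted p = 0.00778, and up to 0.255 over its alternatives). *Acot1* and *Acot2* are near-identical copies, and reads that fit several places were left out by the authors, so the division of reads between them is uncertain.

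*Cd36*, *Lpl* and *Slc25a20*, named whatever their values, overlapped between groups. *Cd36*, the main fatty acid translocase of CMs and also of the endothelium, had 786, 744 and 846 in DMSO and 740, 874 and 1003 in αKG (log2 0.13, limma adjusted p = 0.444). *Lpl*, which frees fatty acids from lipoproteins, had 1607, 1658 and 1650 in DMSO and 1921, 2101 and 1521 in αKG, with replicate 3 on the other side (log2 0.16, limma adjusted p = 0.327, and 0.00490 without it). *Slc25a20*, the carnitine-acylcarnitine translocase, stood at 307, 314 and 333 in DMSO and 247, 271 and 373 in αKG and showed the pattern of *Crat* (log2 -0.12, limma adjusted p = 0.596, and 0.0193 without replicate 3). As given above, 7 of 10 endothelial markers fell, and their part in the *Cd36* values was not tested.

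**Figure D5:**
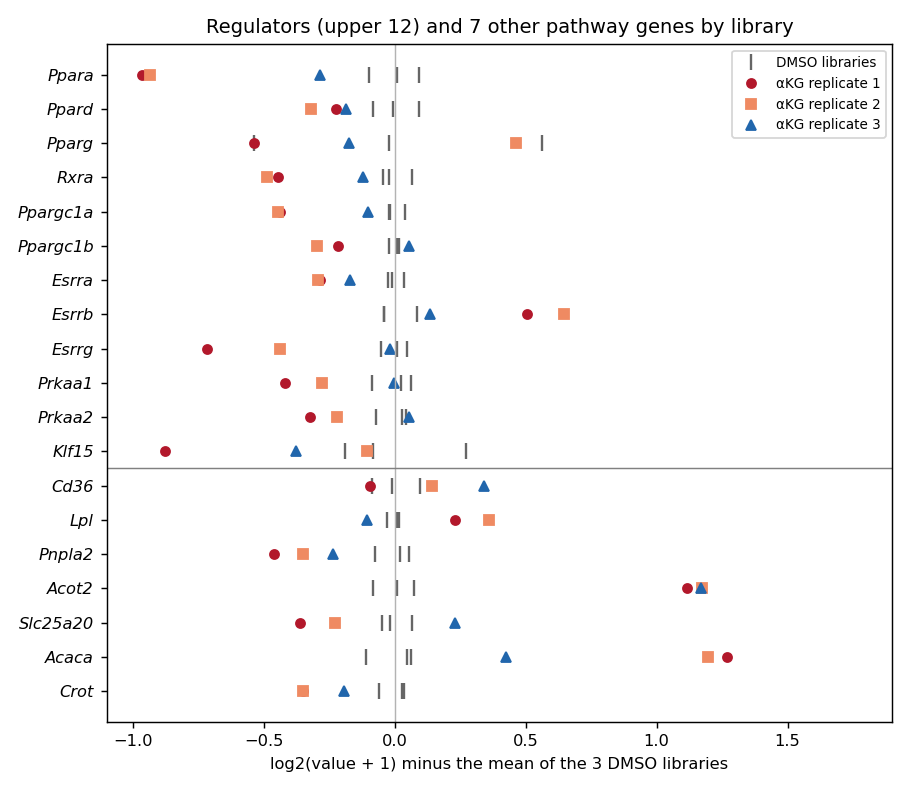
Rows are 12 regulators of fatty acid oxidation genes (above the line) and 7 other genes of the pathway, and the horizontal axis gives log2(value + 1) minus the mean of the 3 DMSO libraries, with grey ticks for DMSO and coloured symbols for αKG replicates 1 to 3. Of the regulators, *Esrrb* alone lies to the right in all 3 αKG libraries, and *Ppara* lies farthest to the left as a mean, at -0.73. *Acot2* is near 1.15 in all 3 αKG libraries.

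Most regulators of the pathway had negative values, none of them past the threshold. Of 12 listed, 0 passed in limma and 0 in limma-voom, 1 was higher and 6 were lower at an unadjusted p under 0.05 (15.7% and 12.4% of all genes), and 11 of 12 had a negative log2 value (9455 of 20066 over all genes), with a median of -0.25 against 0.037 for all genes. *Ppara*, the nuclear receptor that binds fatty acids and drives these genes in heart and liver, had 207, 195 and 181 in DMSO and 99, 101 and 159 in αKG. No αKG library reached the lowest DMSO value (log2 -0.73 ± 0.18, limma adjusted p = 0.0542, and 0.00101 without αKG replicate 3). *Ppargc1a*, the coactivator PGC-1α, had 1611, 1615 and 1677 in DMSO and 1205, 1199 and 1524 in αKG (log2 -0.33 ± 0.09, limma adjusted p = 0.0689, and 0.000719 without replicate 3). Both were lower in all αKG libraries, and least so in replicate 3. Without αKG replicate 3, 1 of the 12 was called higher and 9 lower, against 19.3% and 17.9% of all genes.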

How the data were processed

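Total RNA of cultured neonatal CMs was sequenced in 6 libraries, 3 with DMSO and 3 with αKG. Per the labels and the study's methods for RNA-seq, the authors used Trimmomatic 0.39, STAR 2.7.10a on mm10 (GRCm38), featureCounts 2.0.3 on exons without reads of several genes or places, and DESeq2 1.30.1. The deposited values, named a score here, are counts that the authors had scaled per library and rounded, so count models were not applied. The concentration follows the labels, and the study's methods give another. Depth was estimated from gaps among low values. Intervals cover the spread between libraries only.

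The whole table entered limma 3.58.1 (R 4.3.3) on log2(value + 1), with treatment as only term, a variance trend and no filter. The pseudocount of 1 understates changes of low genes. The 34 genes, the further lists and the rules for naming genes were chosen with earlier results of these data known. All 34 are named, and values in every library are given for genes called, for genes with an unadjusted p under 0.05 and no overlap, and for CPT and malonyl-CoA genes. Library values of *Acsl5*, *Crat*, *Hadha* and *Hsd17b4* and the ratios other than *Cpt1b* to *Cpt1a* were added after they were seen. A gene of the further lists is not reported here. Exon lengths, GC content and overlaps came from GENCODE M21 (GRCm38), where 99.0% of the genes had identical positions, and promoters from RefSeq. Alternatives were pseudocounts of 0.1 and 10, a mean of at least 10, no trend, scaling to one total, quantile normalization, a replicate block, a GC and length correction, limma-voom, averaging of DMSO replicates 2 and 3, and each library left out. On simulated data for αKG against DMSO over 20066 genes, limma called 27 of 100 genes changed by 0.5 and 91 of 100 changed by 1 on the log2 scale. The simulation left low genes out of the changed ones, gave both groups the same dispersion and had no deviating library. In the data the spread was larger in αKG, so these shares are not the power of this comparison. Python 3.11.15 was used for reading and plots.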

Additional observations from a re-analysis of the deposited data

How the results depend on the processing

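The number of the 34 genes past the adjusted threshold, 2 with all libraries, was 0 without the variance trend, 0 with the replicate block, 0 when GC and length were corrected for and 0 with DMSO replicates 2 and 3 averaged, and 0 to 13 over the fits without 1 library, with 13 when αKG replicate 3 was left out and 0 for each of the others. In these limma fits 5 to 15 of the 34 had an unadjusted p under 0.05. The groups did not overlap in 13 of the 34 genes (7 higher and 6 lower), against 13.7% of all genes higher and 14.6% lower. Without αKG replicate 3 they did not overlap in 19 (8 higher and 11 lower), a count added after the data were seen. Over all 20066 genes, 6098 were then higher and 5495 lower without overlap. The number of all genes past the adjusted threshold was 759, against 346 with a pseudocount of 0.1, 27 without the trend, 46 with the block, 1234 with the GC and length correction, 340 with limma-voom, 19 with the averaging and 0 to 7466 without 1 library. The share of higher calls was 74.8%, against 42.5% with the GC and length correction. Of the other pathway genes 3 passed, 1 with the block, 1 with the averaging and 0 to 16 without 1 library. Of the regulators 0 passed, 1 with libraries scaled to the same total (*Ppara*), 2 with the GC and length correction (*Ppara* and *Ppargc1a*) and 0 to 10 without 1 library. The log2 ratio of *Cpt1b* to *Cpt1a* differed by 0.25, by 0.25 with the block and by 0.19 to 0.33 without 1 library.

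Replicate numbers are shared between the groups, and the labels do not say whether same-numbered libraries share an isolation. Their deviations from the group means correlated at -0.074, 0.14 and 0.002 over 13409 genes. With 3 libraries per group and αKG replicate 3 apart from the others, these values cannot settle whether the libraries are paired.

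Directions reversed only where no call stood. Under the correction for GC and length *Acsl4* was -0.20, *Cpt2* 0.0049, *Hadhb* -0.0076, *Acat1* -0.033, *Decr1* -0.013, *Cd36* -0.23 and *Lpl* -0.0044. With quantile normalization *Cpt2* was 0.040, *Acadm* 0.012 and *Hadh* 0.027, and with the averaging *Cpt2* was 0.013. Without 1 library the ranges were -0.048 to 0.055 for *Cpt2*, -0.037 to 0.043 for *Acadm*, -0.059 to 0.020 for *Hadh*, -0.028 to 0.12 for *Acaa2*, -0.18 to 0.0013 for *Eci2*, -0.38 to 0.033 for *Etfb*, -0.038 to 0.032 for *Etfdh* and -0.30 to 0.00061 for *Slc25a20*. Of 688 values of 43 genes under 16 alternatives, 607 kept direction and side of the threshold, 38 lost a call, 18 gained one and 25 reversed. The cause was not tested. *Cpt1b*, *Etfb*, *Ehhadh* and *Acad10* rest on few counts, all with values under 50. For *Cpt1b* and *Etfb* the values also lack reads in shared exons, as given above.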
